A study of Oryza longistaminata with 12 samples.

Results

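In roots of *Oryza longistaminata*, a perennial wild rice that spreads by rhizomes, transcripts of 15 gene models were graded from −N split down through −N and +N to +N split. They were chosen from the measured values alone. A gene model was taken when its mean in −N split roots was at least 5 CPM (reads counted per 1000000 reads of the library, from the column sums), when the group means were lower by at least 1.2-fold at each of the 3 steps −N split to −N, −N to +N and +N to +N split, and when at each step the lowest library of the higher group lay above the highest library of the lower group. Of 29335 gene models, 15 met the rule, which is 0.0511% of all and 0.0867% of the 17294 models with at least 5 CPM in −N split roots. The reverse order, from +N split down to −N split, held for 81 gene models under the same thresholds, and the order −N, −N split, +N, +N split for 11. Of the 25005 genes with enough counts to be tested, the libraries did not overlap in the same direction in 13.8% between −N split and −N, 20.3% between −N and +N, 12.2% between +N and +N split, 34.2% between the ends, and 0.372% at all 3 steps (0.168% with the library scaling TMM, described with the depth). Because the values of all 12 libraries chose the 15 genes, the order of the groups, the fold differences and the absence of overlap are descriptions. Where calls of the fit over all genes are given, they stand beside the share of all genes called and lend no support to the grading.

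The plants were ramet pairs of the strain IRGC10404, that is, young shoots with their own roots at neighbouring nodes of a rhizome, still joined by it. They had grown in hydroponic solution with 1 mM NH4Cl, and the roots of each ramet then stood in a pot of their own for 24 h. In +N both roots received 2.5 mM NH4Cl, in −N both received 0 mM, and in the split treatment one root received 2.5 mM (+N split) while the root of its partner received 0 mM (−N split). Each group had 3 root libraries, and the labels do not say whether same-numbered −N split and +N split libraries came from the same pair. According to the methods, the graphs of the study rest on independently prepared ramet pairs, while neither the methods nor the labels say this of the RNA libraries by name. One library carries conflicting labels. For −N replicate 1 the title and source name give −N, whereas the text on its treatment is that of a split root, and it was kept in −N after its title. A lower level in whole roots can come from fewer cells of a type or from less RNA in each cell, and these cannot be told apart.

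In plants, a root responds to the ammonium or nitrate around it, and it also responds to signals that travel from deprived parts of the plant through the shoot or, in clonal plants, through the rhizome, so that a supplied root can take up more when another root is deprived. A split treatment separates these influences. The step from −N to +N compares roots of uniform pairs, in which own and partner supply change together, whereas the step from −N split to −N changes only the partner of a deprived root and the step from +N to +N split changes only the partner of a supplied root. In the grading described here, transcripts were therefore highest in deprived roots with a supplied partner and lowest in supplied roots with a deprived partner.

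Library scaling bears on the membership and is given first. Counted reads per library ranged from 39.1 to 56.3 M in −N, 40.5 to 42.5 M in −N split, 41.9 to 54.7 M in +N and 40.5 to 45.7 M in +N split. The factors by which the trimmed mean of M values (TMM) corrects the library size were 1.02 to 1.07 in −N split, 1.01 to 1.04 in −N, 0.985 to 0.995 in +N and 0.922 to 0.973 in +N split, and thus ran in the same order as the grading. The share of counts taken by the 10 most abundant genes ran the other way, from 3.41% to 3.90% in −N split to 5.45% to 6.43% in +N split. On column sums, the median gene of the 25005 tested was 0.15 higher (log2) in −N split than in +N split, compared with 0.02 after TMM scaling. Under TMM scaling 9 of the 15 genes still met the rule, and OL06G000427, OL06G000553, OL06G002652, OL09G000029, OL11G000119 and OL12G000959 did not. After TMM scaling every step ratio of all 15 genes was above 1, from 1.17 to 1.71, and the part of the scaling in the grading was not tested.

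**Figure D1:**
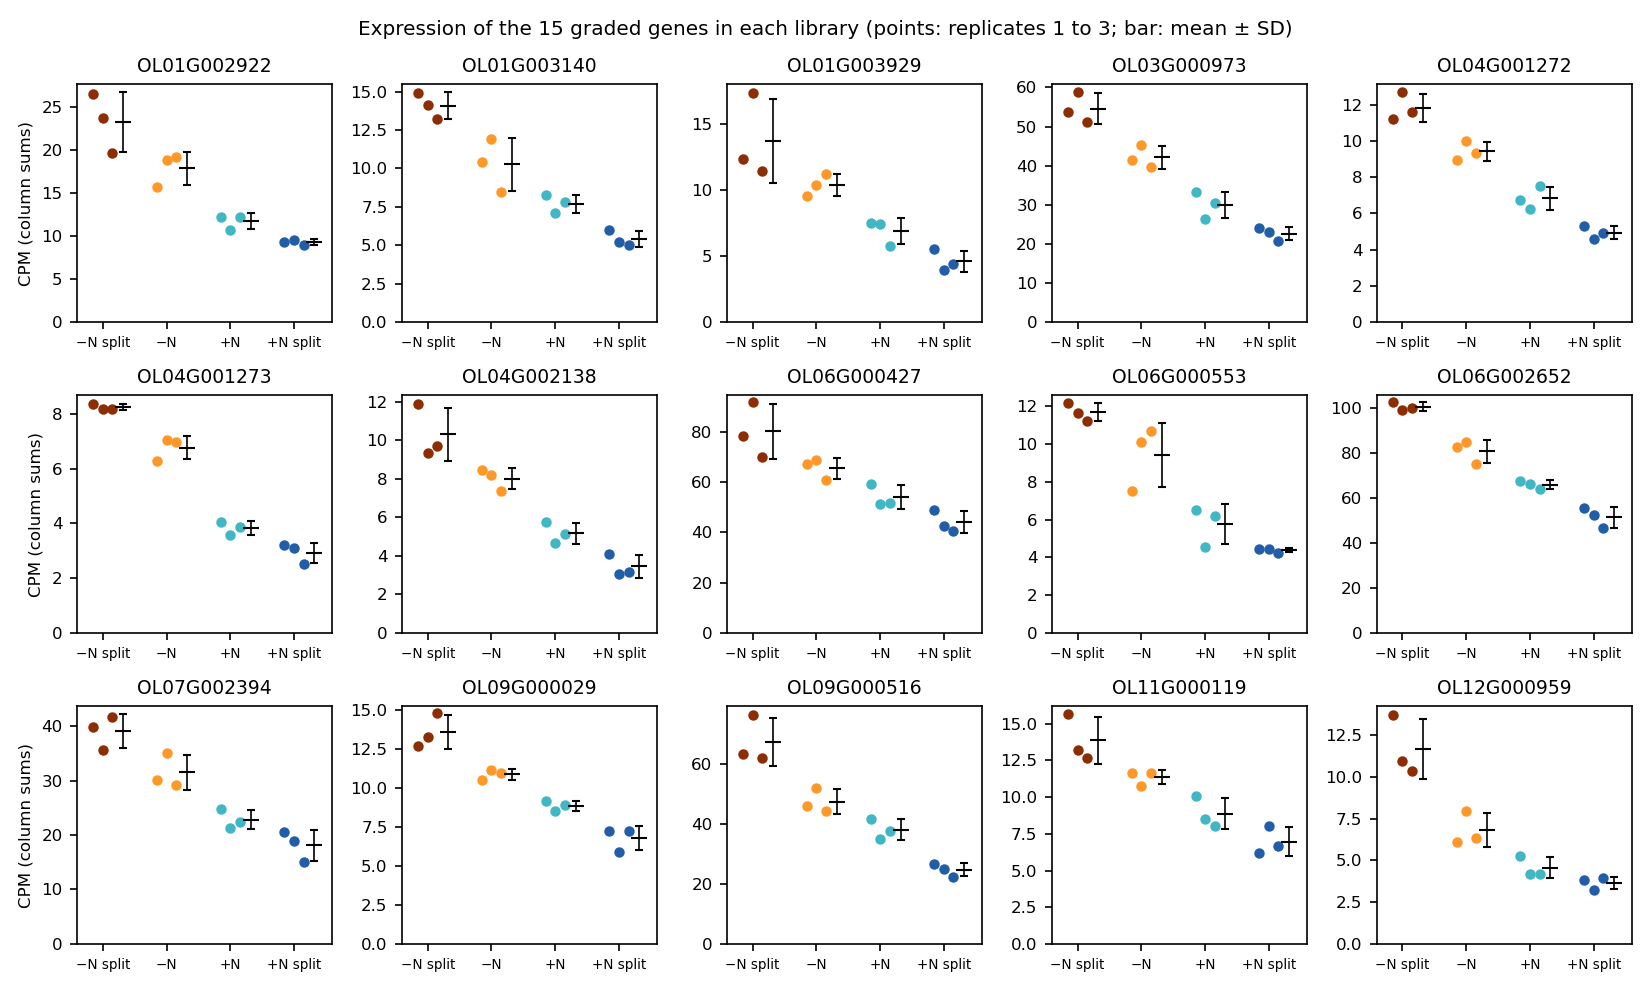
CPM from column sums (vertical axes, from 0) of the 15 genes in −N split, −N, +N and +N split roots. Points are replicates 1 to 3 of each group and the bar is the mean ± SD. In every panel the groups stand in the same order without overlap, as the rule required.

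The gene models carry numbers rather than names, and 5 of the 15 had an entry in the readable supplementary tables of the study, which hold descriptions for 3992 gene models. Of these entries, 3 name a domain or a presumed role, 1 reads function unknown and 1 holds only the name of its transcript. The remaining 10 genes had no entry in the tables that could be read, so no role is given to them. No reference sequence was at hand, and neither promoters nor proteins of the 15 genes are shown.

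OL03G000973 is described by a DnaJ domain, the part by which co-chaperones of the Hsp40 kind engage Hsp70 chaperones in protein folding. Its CPM was 53.7, 58.9 and 51.2 in the −N split libraries, 41.5, 45.2 and 39.6 in −N, 33.1, 26.4 and 30.3 in +N, and 24.0, 23.0 and 20.8 in +N split. The means were 54.6 ± 3.91, 42.1 ± 2.88, 30.0 ± 3.36 and 22.6 ± 1.648 (SD, n = 3 in each group). The 3 steps were thus close in size, at 1.30-, 1.41- and 1.33-fold. Between the ends the gene differed by 1.15 ± 0.097 (log2 ± SE, edgeR fit on the TMM scale). It was 1 of 2 genes, with OL06G002652, in which each of the 3 gaps between neighbouring groups was wider than the counting error of the libraries that bound it.

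OL04G002138 carries the domain label PP2C_SIG, which names a domain of the protein phosphatase 2C family. Phosphatases of this family remove phosphate from serine and threonine, and some of them are negative regulators in abscisic acid signalling in Arabidopsis. In −N split roots the gene stood at 11.9, 9.33 and 9.71 CPM, in −N at 8.47, 8.18 and 7.38, in +N at 5.75, 4.66 and 5.12, and in +N split at 4.11, 3.06 and 3.17. The whole span was 2.99-fold, or 1.45 ± 0.148 on the log2 scale. Its smallest step was the one between the deprived groups, 1.29-fold, and it was also the only one of 16 phosphatase 2C genes described in the tables whose group means stood in this order. Those tables list genes that the study had called in these libraries, mostly as higher in +N, so this count describes the listed genes alone.

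OL01G003929 is described, by similarity, as possibly acting in the modulation of pathogen defense and leaf cell death. It gave 12.3, 17.3 and 11.4 CPM in −N split, 9.55, 10.4 and 11.2 in −N, 7.51, 7.42 and 5.72 in +N and 5.50, 3.95 and 4.35 in +N split. The gap between the lowest −N split and the highest −N library was narrow, at 1.02-fold, and the −N split libraries had the widest spread of any group among the 15 genes (CV 23.2%), set by replicate 2. The span between the ends was 2.97-fold, with the largest steps at −N to +N (1.51-fold) and +N to +N split (1.496-fold). OL04G002846, which has the same description and was singled out after its values were seen, had means of 16.5, 11.4, 5.70 and 5.55 CPM in the same order of groups, so that its 2 supplied groups lay close together where those of OL01G003929 were apart. The remaining gene with that description, OL02G001880, had its highest means in the supplied groups, 93.2 and 101 CPM against 73.7 and 62.7 in −N split and −N.

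OL01G002922 is listed under its transcript name only. Its CPM was 26.5, 23.7 and 19.6 in −N split, 15.7, 18.8 and 19.2 in −N, 12.2, 10.7 and 12.2 in +N, and 9.30, 9.56 and 8.90 in +N split. Replicate 3 of −N split and replicate 3 of −N nearly touched, at 1.02-fold, whereas the deprived and supplied groups were 1.28-fold apart at their nearest libraries. The step from −N to +N was the largest, at 1.53-fold, compared with 1.30-fold between the deprived and 1.27-fold between the supplied groups.

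A pair of graded genes carries consecutive numbers on chromosome 4, OL04G001272, which has no entry, and OL04G001273, whose entry reads function unknown. OL04G001272 was at 11.2, 12.7 and 11.6 CPM in −N split, 8.96, 9.99 and 9.32 in −N, 6.75, 6.24 and 7.51 in +N, and 5.32, 4.57 and 4.92 in +N split. OL04G001273 was at 8.38, 8.17 and 8.19 CPM in −N split, 6.27, 7.04 and 6.96 in −N, 4.05, 3.57 and 3.86 in +N, and 3.20, 3.09 and 2.52 in +N split. The steps of OL04G001272 were even, at 1.26-, 1.38- and 1.38-fold. Those of OL04G001273 were uneven, since its −N to +N step was 1.77-fold, the largest of any step of the 15 genes, and its gap there, 1.55-fold between the nearest libraries, was the widest. The partner steps of OL04G001273 were 1.22- and 1.30-fold. The ratio of the first gene to the second ranged from 1.34 to 1.96 over the 12 libraries and averaged 1.44 and 1.40 in the deprived groups (−N split, −N) and 1.79 and 1.70 in the supplied groups (+N, +N split). Within groups the deviations of the pair correlated at r = 0.29 over the 12 libraries, a description with no test. Whether reads of one model can be counted on the other was not examined, because no sequence was read.

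Around this pair lie 2 gene models that are described as sugar transporters, proteins that carry hexoses or related sugars across membranes. They were singled out after their values were seen. OL04G001271, next to the pair, was at 38.0, 50.1 and 41.8 CPM in −N split, 37.0, 31.0 and 35.9 in −N, 11.9, 12.1 and 13.3 in +N, and 14.1, 9.36 and 10.6 in +N split. Its group means (43.3, 34.6, 12.4 and 11.3) stood in the order of the rule, but its supplied groups overlapped and were 1.097-fold apart, while the deprived and supplied groups were 2.78-fold apart. OL04G001277, described as sugar transport protein 5, had means of 8.64, 7.32, 3.44 and 3.34 CPM, likewise with a wide step from −N to +N. The models OL04G001270 and OL04G001276 were not in the order, at 14.6, 11.7, 13.1 and 12.1 CPM and at 17.9, 19.6, 14.7 and 14.0 CPM in −N split, −N, +N and +N split. Over all graded genes, 5 of 22 tested neighbours by number that are not graded had group means in the order of the rule, beside 21.1% of all genes tested.

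**Figure D2:**
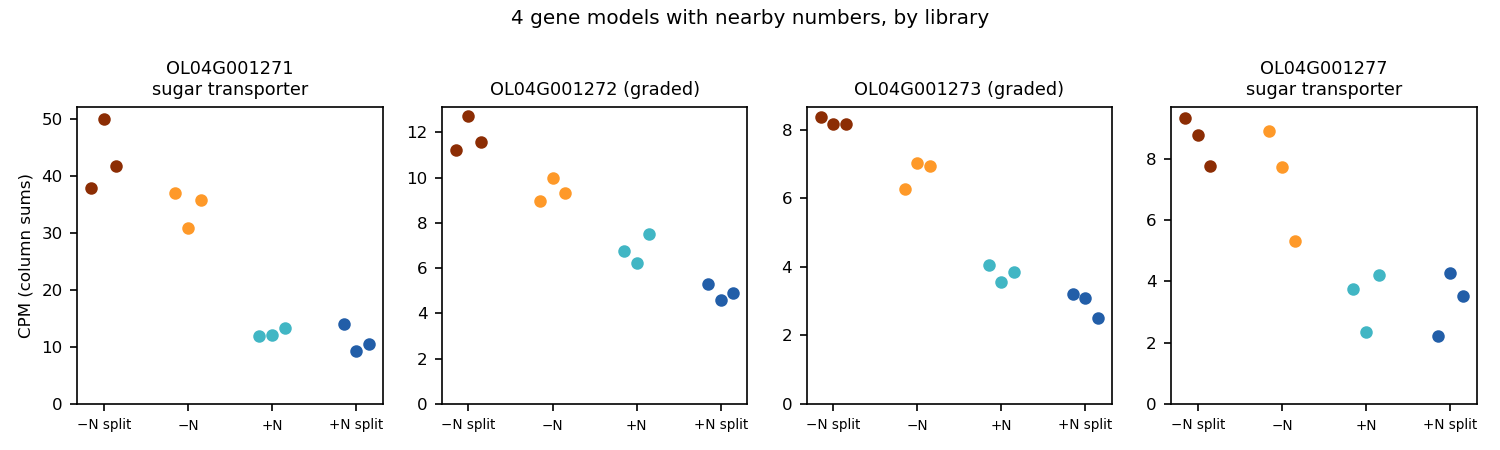
CPM from column sums (vertical axes, from 0) by library for the graded genes OL04G001272 and OL04G001273 and for the sugar transporter models OL04G001271 and OL04G001277, with replicates 1 to 3 from left to right in each group. In the transporter models the +N and +N split points overlap, whereas in the graded genes they do not.

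OL12G000959 had the widest span of the 15 genes and was the only one whose largest step lay between the deprived groups. Its libraries gave 13.7, 10.96 and 10.3 CPM in −N split, 6.12, 7.96 and 6.31 in −N, 5.27, 4.20 and 4.20 in +N, and 3.82, 3.21 and 3.92 in +N split. Having a supplied partner thus went with a 1.72-fold higher level in deprived roots, whereas the 2 supplied groups differed by 1.25-fold. Between the ends the difference was 3.19-fold, 1.54 ± 0.160 on the log2 scale. After TMM scaling its last step was 1.1996-fold, just below the threshold. Its neighbours by number, OL12G000958 and OL12G000960, were low throughout, with −N split means of 2 and 1.77 CPM and +N split means of 0.91 and 0.53 CPM.

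OL09G000516 had the largest step between the supplied groups. It was at 63.2, 76.3 and 61.9 CPM in −N split, 45.9, 51.9 and 44.3 in −N, 41.7, 35.0 and 37.6 in +N and 26.7, 25.1 and 22.4 in +N split. Its means, 67.1 ± 7.98, 47.4 ± 4.01, 38.1 ± 3.39 and 24.7 ± 2.15 CPM (SD, n = 3), gave partner steps of 1.42- and 1.54-fold and a step from −N to +N of 1.24-fold. The partner steps were the larger ones in this gene, with log2 differences of 0.48 ± 0.105 and 0.57 ± 0.106 (SE) against 0.27 ± 0.105 from −N to +N. In OL01G003140 the step from −N to +N was likewise the smallest. It was at 14.9, 14.1 and 13.2 CPM in −N split, 10.4, 11.9 and 8.47 in −N, 8.25, 7.08 and 7.79 in +N and 5.97, 5.19 and 4.99 in +N split. Its steps were 1.37-, 1.33- and 1.43-fold, and its −N and +N libraries came within 1.03-fold of each other.

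In OL06G000553 the step from −N to +N was the largest, at 1.64-fold. In −N split it was at 12.2, 11.6 and 11.2 CPM, in −N at 7.50, 10.1 and 10.7, in +N at 6.49, 4.54 and 6.22, and in +N split at 4.47, 4.45 and 4.24. Replicate 1 of −N, the library with conflicting labels, was well below the other −N libraries, and replicate 2 of +N reached down to the +N split level, 1.02-fold above it. Without −N replicate 1 the first step was under the threshold and the gene left the set. OL07G002394 was at 39.9, 35.6 and 41.8 CPM in −N split, 30.2, 35.1 and 29.2 in −N, 24.7, 21.4 and 22.4 in +N and 20.5, 18.9 and 14.99 in +N split, and its deprived groups came within 1.01-fold of each other at replicate 2.

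The 4 genes with the smallest spans had spans under 2-fold. OL06G002652 was at 103, 99.0 and 99.8 CPM in −N split, 82.6, 84.6 and 74.8 in −N, 67.4, 66.2 and 63.7 in +N and 55.4, 52.2 and 46.4 in +N split, a 1.96-fold span with narrow groups. OL06G000427 was at 78.5, 91.8 and 70.1 CPM in −N split, 67.0, 68.7 and 60.8 in −N, 59.3, 51.1 and 51.5 in +N, and 48.9, 42.4 and 40.6 in +N split. In that gene all 3 steps were 1.21- to 1.23-fold, its groups were at most 1.045-fold apart at their nearest libraries, and its span of 1.82-fold was the smallest of the set. OL09G000029 was at 12.7, 13.2 and 14.8 CPM in −N split, 10.5, 11.15 and 10.97 in −N, 9.13, 8.51 and 8.92 in +N and 7.24, 5.88 and 7.26 in +N split. OL11G000119 was at 15.7, 13.2 and 12.7 CPM in −N split, 11.6, 10.8 and 11.7 in −N, 10.1, 8.51 and 8.06 in +N and 6.19, 8.05 and 6.67 in +N split. In OL11G000119 the lowest +N and the highest +N split library were 1.001-fold apart, so that its place in the set rested on a difference far below the counting error.

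Across the 15 genes the median ratios of the 3 steps were close, though single genes were uneven and the rule set a floor of 1.2-fold. The median ratio was 1.26 from −N split to −N (range 1.22 to 1.72), 1.38 from −N to +N (1.21 to 1.77), 1.30 from +N to +N split (1.23 to 1.54) and 2.51 between the ends (1.82 to 3.19). On the TMM scale the median log2 differences were 0.31, 0.42, 0.33 and 1.2, with a median SE of 0.12, beside medians over all genes tested of 0.02, 0.00, 0.02 and 0.02. The step between uniform pairs was the largest of the 3 in 8 genes, the partner step of supplied roots in 6 and that of deprived roots in 1. This step between uniform pairs made up between 21.9% (OL09G000516) and 55.0% (OL04G001273) of the log2 span, with a median of 36.7%. In 13 of the 15 genes it was under 50% of the span, with the rest made up by the 2 partner steps. The rule held each partner step at 1.2-fold or more, which limits this share in advance. Own and partner supply change together from −N to +N, so the share is not that of own supply.

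**Figure D3:**
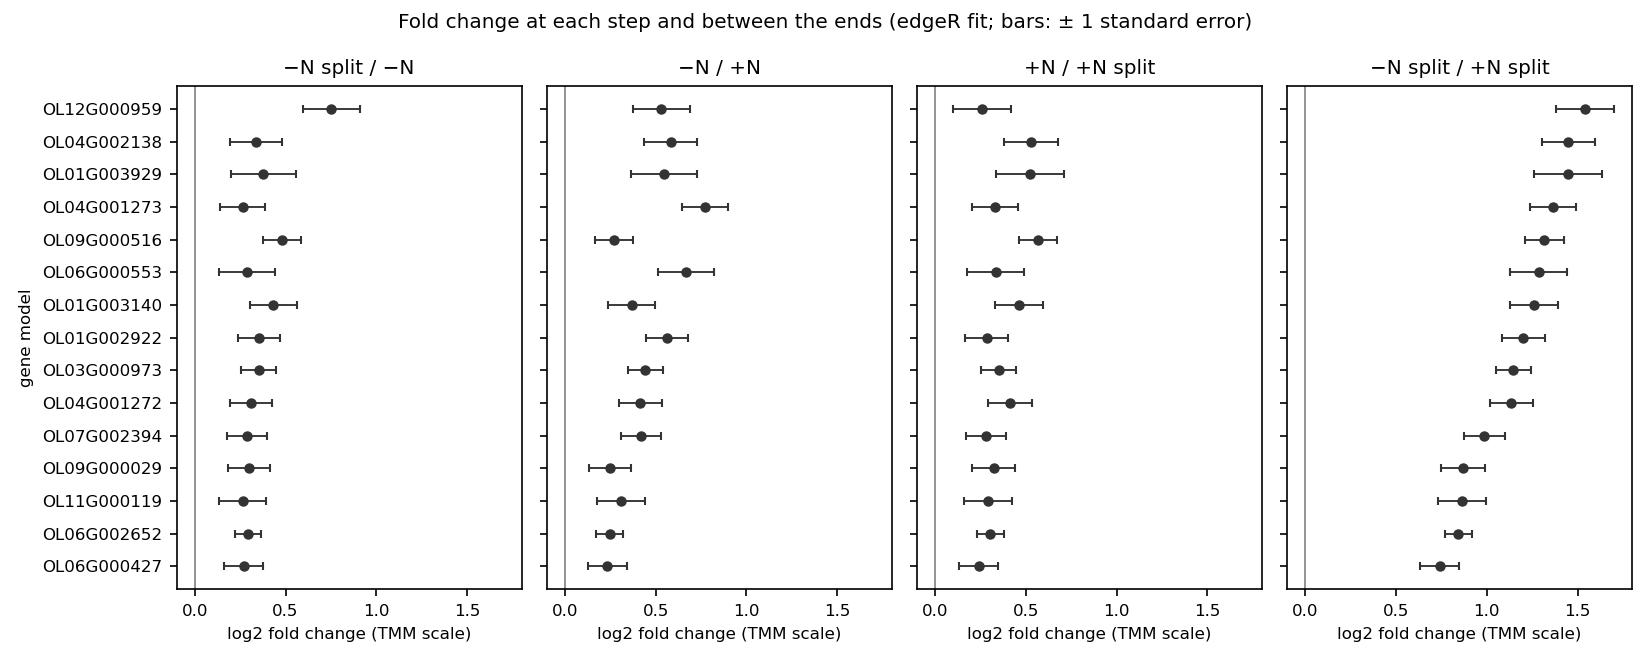
Log2 fold change (horizontal axes, edgeR fit on the TMM scale) of each of the 15 genes at the 3 steps and between −N split and +N split, with points for the estimate and bars for ± 1 standard error. OL12G000959 stands out at the first step (0.75), OL04G001273 at the second (0.77), and the genes are sorted by their ratio between the ends.

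Own supply could also be compared with the partner held alike, which skips a step of the grading. With a supplied partner, −N split was above +N by a median of 0.80 on the log2 scale, from 0.50 in OL06G000427 to 1.28 in OL12G000959. With a deprived partner, −N was above +N split by a median of 0.83, from 0.47 in OL06G000427 to 1.11 in OL04G002138. The medians over all genes tested were -0.0041 and 0.01. In the 15 genes the difference with own supply was thus about as large beside a supplied as beside a deprived partner. This is a description, since the rule set the direction of both and held each step they span at 1.2-fold or more. How far these comparisons differ is the same quantity as the difference between the partner steps, given next.

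Both partner steps had the same direction by the rule, and their sizes could be set against each other. The partner step of deprived roots less that of supplied roots lay between -0.19 (OL04G002138) and 0.49 (OL12G000959) on the log2 scale, with a median of -0.03. It was larger in deprived roots in 5 genes and in supplied roots in 10. OL12G000959 had an SE of 0.223. The smallest adjusted p of the 15 genes for this difference was 0.533 (edgeR quasi-likelihood test, adjusted over all genes tested), which does not show that the steps were equal. The rule also held both steps at 1.2-fold or more in these same libraries. This difference was therefore not free of the selection, and nothing is read from its p.

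The rule required the groups not to overlap but not how far apart they had to be. The distance between the nearest libraries of neighbouring groups ranged from 1.001-fold (OL11G000119) to 1.55-fold (OL04G001273). Set against the 95% counting error of these libraries alone, the gap was wider in 6 genes between −N split and −N, in 8 between −N and +N and in 5 between +N and +N split. A like count over all genes was not made, so these numbers cannot be set against it. Between 115 and 4759 reads stood behind each value, and the CV within groups was between 1.40% and 23.2% (median 8.80%). Intervals of this kind cover counting error only.

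**Figure D4:**
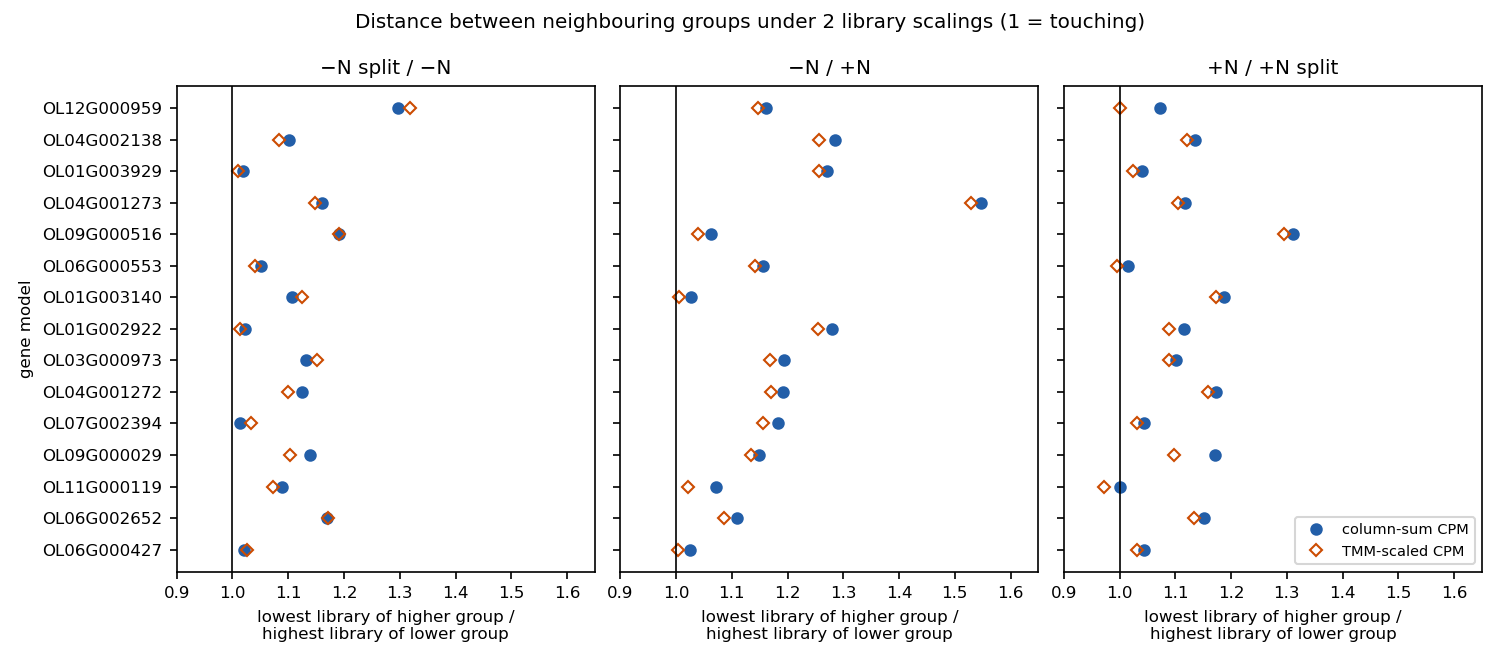
Lowest library of the higher group divided by the highest library of the lower group (horizontal axes) for the 15 genes at the 3 steps, with filled points for column-sum CPM, open points for TMM-scaled CPM and a line at 1, where the groups touch. On TMM-scaled CPM, OL06G000553 and OL11G000119 pass below 1 at the step from +N to +N split.

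Within groups, the 15 genes often had the same high and low libraries, which the rule limits only through the overlap. Replicate 1 of +N was the highest library of its group in 13 of the 15 genes, compared with 35.7% of all genes tested, and replicate 2 of +N was the lowest in 12, compared with 33.0%. Replicate 1 of +N split was the highest in 11 (39.2% of all genes) and replicate 2 of −N in 10 (41.7%). In −N split the order was less uniform, with replicate 1 the highest in 8 (40.5%) and replicate 3 the lowest in 9 (39.3%). The library with conflicting labels, −N replicate 1, was the lowest of its group in 7 genes, beside 37.4% of all genes, and the highest in 1, beside 25.2%. In another 7 genes the lowest was −N replicate 3, beside 37.3%. Over the 105 pairs of graded genes, the correlation of the log2 deviations from the group means had a median of 0.30 (range -0.66 to 0.94), compared with 0.028 over all pairs of the 17294 gene models with at least 5 CPM in −N split roots. On TMM-scaled CPM, a comparison added after the data were seen, these medians were 0.19 and -0.001. On that scale +N replicate 1 was again the highest of its group in 13 of the 15 genes. The lowest was +N replicate 2 in 11, and +N split replicate 1 was the highest in 10. In the deprived groups less of the sharing remained. There −N replicate 2 was the highest in 6 (33.9% of all genes) and −N split replicate 1 in 6 (30.5%). The lowest was −N split replicate 3 in 8 (35.6%), −N replicate 1 in 7 (31.9%) and −N replicate 3 in 7 (36.2%). The closest pair on column sums was OL03G000973, the DnaJ gene, and OL09G000516. All these correlations are over the same 12 libraries, whose sizes they share, and are given as descriptions. Those libraries also chose the 15 genes, and no set of other genes with a like direction was compared.

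Membership depended on single libraries. When each library was left out in turn, between 15 and 38 gene models met the rule and between 11 and 15 of the 15 were kept, and the set grew most without +N split replicate 1 (38), +N replicate 2 (35), +N replicate 3 (29) and −N split replicate 3 (24). Without −N replicate 1, 19 gene models met the rule, and OL04G001273 and OL06G000553 were lost from the 15. OL01G002922, OL01G003140, OL03G000973 and OL04G001272 stayed in the set without any one library and under both other scalings, TMM and the DESeq2 size factors. OL06G000427 was lost without each of 7 libraries. A minimum of 1 CPM in −N split gave 16 gene models and one of 10 CPM gave 14.

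Just inside the step threshold lay OL06G000427, whose smallest step was 1.21-fold from −N to +N, and OL04G001273 and OL11G000119, both at 1.22-fold from −N split to −N. Just outside lay OL04G002847, described as a plasma-membrane choline transporter, with means of 111, 92.7, 62.7 and 50.9 CPM and a first step of 1.196-fold, OL06G000565 with a last step of 1.188-fold, and OL02G000137 with a first step of 1.184-fold. A further 77 gene models, these included, met the rest of the rule with a step under 1.2-fold, and 95 had steps of at least 1.2-fold but overlapping libraries.

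The fit over all 25005 genes gives the same differences beside the background of the series. Called as higher by the edgeR quasi-likelihood test (adjusted p under 0.05) were 3 of the 15 genes in −N split over −N (OL06G002652, OL09G000516 and OL12G000959), beside 1.27% of all genes. In −N over +N, 9 of the 15 were called, beside 8.84% of all genes. In +N over +N split only OL09G000516 was called, beside 0.104% of all genes, and in −N split over +N split all 15, beside 16.8%. Unadjusted p-values under 0.05 were reached by 11, 13, 13 and 15 of the genes in these comparisons. The share of all genes at that level is not given here, so these numbers cannot be set against it. The rule used the same contrasts, so nothing is read from these counts. The first of them depends on single libraries, as do the calls over all genes. In −N split over −N, 0 of the 15 were called without −N replicate 1 or without −N replicate 3. All genes called higher fell there from 317 to 97 and 157. Of the 15, 8 and 9 then had an unadjusted p under 0.05. Without −N split replicate 1 or 2 the count was 1, beside 278 and 122 of all genes. DESeq2 on all libraries called 5 of the 15, beside 663 of all genes. In +N over +N split, OL09G000516 was no longer called without any one of −N replicate 1, +N replicates 1 and 3 or +N split replicates 1, 2 and 3. All genes called higher there were 10, 39, 2, 14, 1 and 0 in the same order of libraries, against 26 with all libraries. In −N over +N the count was 5 without −N replicate 2 and 4 without +N replicate 2. All genes called higher were 1595 and 1547 in these settings, against 2211 with all libraries. Group means stood in the order of the rule in 21.1% of all genes tested, or 14.2% on TMM-scaled CPM.

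The graded genes lay on 8 chromosomes by their numbers, with 7 on chromosomes 1 to 5, for which the table of genes listed as higher in −N could be read. Only the 3 genes whose entry names a domain or a presumed role could have fallen in any of 10 groups formed from the descriptions in the supplementary tables, and none of the 3 did. Those tables list genes called by the study in these libraries, so the direction of a group is not independent evidence. Of 52 genes for cell division and chromatin, 30 had group means in the graded order and 43 were called higher in −N over +N by edgeR. Of these 52, 51 had been listed by the study as higher in −N, which set the direction of that step in advance. The share so listed was lower in each of the other groups. The 52 had median log2 differences of 0.12, 0.63 and 0.09 at the 3 steps, compared with 0.31, 0.42 and 0.33 in the 15 graded genes. The order of means held in 9 of 29 tubulin and actin genes, 12 of 68 cell wall genes, 3 of 48 peroxidases, 17 of 161 protein kinases and receptors, 10 of 131 transporters and 11 of 155 transcription factors. It held in 2 of 36 genes for nitrogen assimilation and recycling, 1 of 6 genes in the endodermis list and 0 of 19 green tissue genes. The 6 genes in the endodermis list were chosen only by a family description, that of proteins like the Casparian strip membrane proteins. Whether they mark the endodermis or roots was not tested. Their sums were 125 to 163 CPM in −N split and 138 to 154 in −N. In +N they were 82.0 to 107 and in +N split 98.8 to 120. The 19 green tissue genes, for chlorophyll-binding proteins, photosystem reaction centres and the small subunit of Rubisco, were all detected and summed to 609 to 2055 CPM in −N split, 1371 to 2072 in −N, 2179 to 2786 in +N and 1313 to 3072 in +N split. Neither sum stood in the graded order without overlap, and the part of either in the grading was not tested. Among 11 genes described as DnaJ proteins, a family taken up after the values were seen, OL03G001362 (26.8, 24.2, 12.7 and 12.7 CPM) was the only one besides OL03G000973 with means in this order.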

How the data were processed

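Roots of 4 groups with 3 mRNA libraries each were analysed. The authors used HISAT2 for mapping and featureCounts for counting, and deposited raw counts of each gene model. The log2 CPM that they also deposited were recomputed from the counts in edgeR without TMM scaling (prior count 2, largest difference 4.99e-09), so the counts alone were used. Not given in the sources used here are tool versions, strand and the handling of pairs. Reads of overlapping or near-identical models cannot be told apart.

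CPM was computed from column sums for the rule. In R 4.3.3, edgeR 4.0.16 fitted a mean per group to all 12 libraries with glmQLFit on the 25005 genes kept by filterByExpr (minimum count 10, minimum total 15), with TMM factors, and glmQLFTest gave p-values that were adjusted by Benjamini-Hochberg over all genes. Fold changes have the standard errors of that fit, with 8 residual degrees of freedom. P-values measure the spread between these libraries, which the labels do not assign to separate ramet pairs. Library totals of 39.1 to 56.3 M counts set the depth.

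The genes and the lists were chosen with earlier results of these data known. With fewer than 40 members all could be named, beside the genes nearest to the step threshold, and neighbours and families were added after their values were seen. Alternatives were TMM and DESeq2 1.42.0 scaling, other minima and steps, overlap allowed, the DESeq2 Wald test, no filter, the replicate number as a block, and each library left out. Descriptions came from the readable parts of the supplementary tables (3992 genes), and columns of the authors' own comparisons, which hold fold changes and p-values, were not used. No genome was used here.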

Additional observations from a re-analysis of the deposited data

How the results depend on the processing

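The number of graded genes was 15, and it was 9 on TMM-scaled CPM, 8 with DESeq2 size factors, 59 with steps of at least 1.1-fold, 0 with steps of at least 1.5-fold, 110 where overlap was allowed, and between 15 and 38 with each library left out. The scaling moved the median of all genes tested between the ends from 0.15 to 0.02 (log2). Of the 15 genes, the DESeq2 Wald test called 5 in −N split over −N, 11 in −N over +N and 3 in +N over +N split. Over all genes it called 663, 2762 and 234 as higher, of 25019, 25019 and 21812 tested. The edgeR test called 317, 2211 and 26 of 25005 as higher. Leaving out each library gave 0 to 3 calls in −N split over −N, 4 to 10 in −N over +N, 0 to 1 in +N over +N split and 15 in −N split over +N split in each case. All genes called higher ranged from 97 to 356, 1476 to 2243, 0 to 39 and 3099 to 4292 in these comparisons. Where the count was 0, between 8 and 12 of the genes had an unadjusted p under 0.05. Nothing is read from this either, since the same values chose the genes and the share of all genes is not given. Deviations of same-numbered libraries correlated at r from -0.16 to 0.23, with 5 of 18 pairs over 0.1. A library correlated best with its own number in 18 of 36 choices. Between +N and +N split, which by design cannot share a ramet pair, the 3 same-numbered pairs were at 0.187, 0.0704 and 0.176. These values are a hint from the data and not from the design. Between −N split and +N split, the sides of a split pair, the same-numbered pairs were at -0.13, 0.104 and 0.079. Since the labels do not name a shared source and not every pair was over 0.1, the numbers were not taken to pair the libraries. With the replicate number as a block, 3, 9, 1 and 15 of the genes were called in these comparisons, and without a filter 2, 9, 1 and 15. Over all genes, the block changed the calls of higher genes from 317, 2211, 26 and 4192 to 328, 2524, 13 and 4615. Without a filter these calls were 297, 2112, 26 and 4021. With 3 libraries a group, an order without overlap can rest on a single library. At this depth the gap between the nearest libraries was within the 95% counting error in 9, 7 and 10 of the genes at the 3 steps, a count not made over all genes.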
